A study of Mus musculus with 6 samples.

Results

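The subject is a set of 10 genes of MHC class I peptide presentation, measured in the hearts of mice made endotoxaemic with lipopolysaccharide (LPS), a cell-wall component of Gram-negative bacteria. The genes were chosen by name as heavy chains and light chain of the class I molecule (H2-K1, H2-D1, B2m), parts of the peptide-loading complex (Tap1, Tap2, Tapbp), catalytic subunits of the immunoproteasome (Psmb8, Psmb9, Psmb10) and the transactivator Nlrc5. All 10 were on the array, among 22815 genes with a symbol, and all 10 were among the 14701 genes tested. Expression was read on 1-colour Agilent mouse arrays, 1 array per mouse, from total RNA of the heart. The saline group held 3 male C57BL6 mice aged 10 weeks that were starved for 16 h, injected into the peritoneum with LPS at 20 mg/kg, and given saline 3 and 24 h later. The rhTM group held 3 such mice given rhTM, recombinant human thrombomodulin, at the same times; thrombomodulin on endothelium binds thrombin and turns it towards anticoagulant signals. Hearts were taken 30 h after LPS in both groups. Every mouse had received LPS, so no value below compares with an untreated heart, and the comparison is between treatments begun after endotoxin.

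Class I molecules display peptides from a cell's own proteins to CD8 T cells. Inflammatory signals, interferon gamma above all, exchange the catalytic subunits of the proteasome for inducible ones, and the peptides they cut are carried into the endoplasmic reticulum by the TAP transporter and loaded onto the heavy chain with the help of tapasin. NLRC5 drives the promoters of class I genes through a conserved set of elements, one of which is the Y box. In the heart, endothelial and infiltrating immune cells carry more class I than cardiomyocytes do. A whole heart mixes these cells, so that fewer cells of a type and less RNA per cell cannot be told apart.

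The promoters of the members are shown first, because interferon and NF-kB signals are known to act on class I genes through elements close to the start. RefSeq windows (assembly GRCm38.p6, from 250 bases before to 50 after the transcript start) matched 8 of the 10 members; Tap2 and Nlrc5 were not matched. Each stretch below holds the 200 bases before the start, on the strand of the gene, with motif matches in capitals. They are B2m at chr2:122147487-122147686 (plus strand), H2-K1 at chr17:34000348-34000547 (minus), H2-D1 at chr17:35262894-35263093 (plus), Tap1 at chr17:34187356-34187555 (plus) and Tapbp at chr17:33919278-33919477 (plus).
B2m: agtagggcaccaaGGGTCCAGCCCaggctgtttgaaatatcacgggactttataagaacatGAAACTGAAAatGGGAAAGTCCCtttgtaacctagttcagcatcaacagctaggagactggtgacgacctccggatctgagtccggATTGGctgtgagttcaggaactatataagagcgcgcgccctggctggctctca
H2-K1: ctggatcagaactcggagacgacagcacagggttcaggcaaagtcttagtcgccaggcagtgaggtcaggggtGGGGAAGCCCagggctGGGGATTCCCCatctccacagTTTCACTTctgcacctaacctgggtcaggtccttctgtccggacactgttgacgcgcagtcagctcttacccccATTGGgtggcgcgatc
H2-D1: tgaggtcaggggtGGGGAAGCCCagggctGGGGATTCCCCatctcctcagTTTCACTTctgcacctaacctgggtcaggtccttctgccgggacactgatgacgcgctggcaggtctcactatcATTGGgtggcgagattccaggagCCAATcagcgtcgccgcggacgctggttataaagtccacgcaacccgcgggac
Tap1: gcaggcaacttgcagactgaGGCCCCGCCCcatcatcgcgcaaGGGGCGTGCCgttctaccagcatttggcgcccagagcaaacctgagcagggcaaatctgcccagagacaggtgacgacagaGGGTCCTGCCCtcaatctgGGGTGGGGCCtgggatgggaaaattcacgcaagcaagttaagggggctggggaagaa
Tapbp: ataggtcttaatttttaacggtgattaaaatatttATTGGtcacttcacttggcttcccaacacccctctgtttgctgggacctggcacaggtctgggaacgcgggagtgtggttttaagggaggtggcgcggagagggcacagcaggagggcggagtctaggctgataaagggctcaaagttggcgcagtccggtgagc

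The search covered 5 motifs on both strands, with overlaps allowed, and the capitals mark the matches that fall within the printed bases. The interferon-stimulated element was present in 1 of the 8 member windows, that of B2m, and in 3.44% of all 32851 promoter windows of 300 bases. The NF-kB site (GGG and CC, with 5 bases of any kind between) was present in 5 members, H2-K1, H2-D1, B2m, Tap1 and Psmb9, and in 50.8% of all windows. The Y box (ATTGG) was present in 6 members, the same 5 and Tapbp, and in 37.4% of all windows. The Y box of Tap1 lies outside its printed stretch. The gamma-activated site (TTCNNNGAA) was present in 1 member, Psmb8, whose window is not printed, and in 8.3% of all windows. A shorter site of interferon regulatory factors (AANNGAAA), added after the sequences were seen and contained in the longer element, was present in H2-K1, H2-D1 and B2m and in 23.9% of all windows. The windows of H2-K1 and H2-D1 shared an aligned stretch of 139 bases, of which 127 were identical (91.4%). Tap1 and Psmb9 are transcribed away from each other, with 225 bases between their starts, and the stretch printed for Tap1 spans most of the bases between. Their windows overlap, so the Y box and NF-kB matches counted for Tap1 and for Psmb9 are the same bases. A match is a description of these letters and not a measured binding site.

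**Figure D1:**
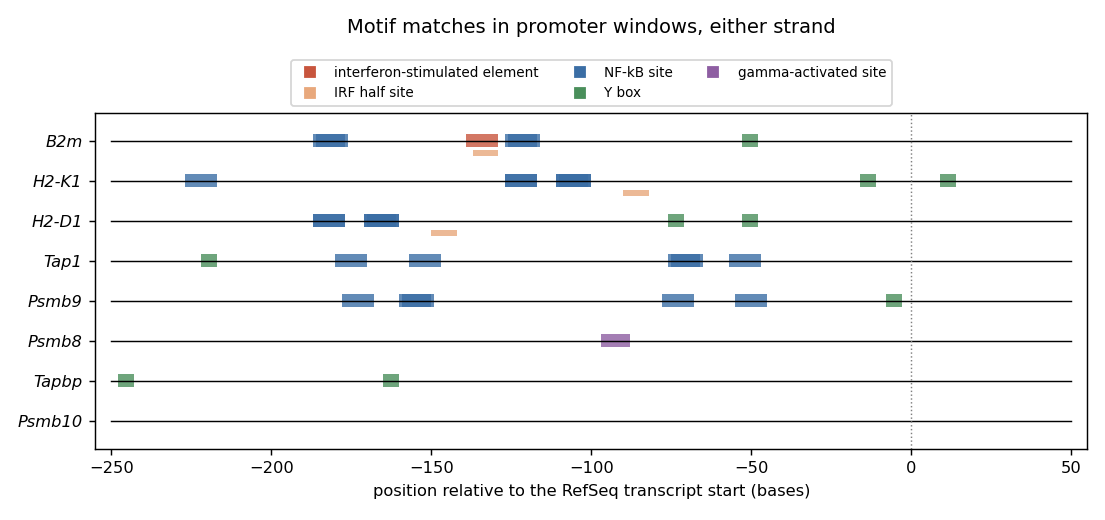
Position of motif matches in the promoter windows of 8 members, in bases from the RefSeq transcript start (dotted line), coloured by motif. Matches to the interferon-stimulated element and to the gamma-activated site occur in 1 member each, B2m and Psmb8; Psmb10 has none of the 5 motifs in this window.

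The arrays differed in ways that the groups do not explain. Saline 1 and 2 were on slide 1 (scan 1), and saline 3 was on slide 2 (scan 2) with all rhTM arrays. Between 54.8% and 62.8% of the 59305 spots besides controls were well above background, and no spot was saturated. Saline 3 correlated at 0.965 with rhTM 3 and at 0.942 and 0.939 with saline 1 and 2, taken across genes, whose values are not independent. Each member is therefore also given with the slide as a block, where the difference equals the mean of the rhTM arrays minus saline 3, within slide 2, and rests on 1 saline array. A level is the log2 signal less the 75th percentile of that array, and each difference subtracts the saline mean from the rhTM mean, with its SE from limma (3 mice a group). Levels of different probes are not comparable with each other.

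None of the 10 genes passed the test. At an adjusted p under 0.05 (limma, Benjamini-Hochberg over all genes tested), 0 members were called lower, against 2.41% of all genes tested, and 0 were called higher, against 2.75%. In the fit blocked by slide 0 members were called (background 1.95% lower and 3.83% higher), and likewise 0 in the fit blocked by mouse number (1.65% lower and 2.43% higher). At an unadjusted p under 0.05, 4 members lay lower (Tapbp, H2-D1, Psmb8 and Tap1) and 0 higher, against 15.6% and 15.1% of all genes. That count of 4 was 0 when blocked by slide, where 2133 of the 14701 genes lay lower at that p, and 2 when blocked by mouse number, where 2595 did. In the group means 8 of the 10 lay lower with rhTM, against 49.2% of all genes, with a median difference of -0.61, against 0.01 for all genes tested. Against saline 3 on the same slide the median was -0.31, again with 8 lower, though not the same 8. With arrays centred on the median of the genes tested 7 members lay lower, and with quantile normalization 9 did.

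The rhTM arrays lay wholly below the saline arrays for 2 members, H2-D1 and Tapbp, and wholly above for 0. That share is near the background, since 18.7% of all genes lay wholly below and 17% wholly above. Leaving out saline 3 called 5 members lower, Tapbp, Tap2, H2-D1, Psmb8 and Tap1, beside 19.1% of all genes, and 0 higher, beside 20.5%, and the remaining saline arrays were then both on the other slide. The count was 0 with any other single array left out. Of all genes, 0 were called lower without saline 1, rhTM 1 or rhTM 2, and 3 without saline 2. Without rhTM 3 the lower calls were 512, more than the 355 with all arrays, and 0 members were among them.

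The class I heavy chains present the peptide. H2-K1 lay at 6.62, 6.41 and 6.17 in saline 1, 2 and 3 and at 5.69, 5.66 and 6.30 in rhTM 1, 2 and 3. The groups overlapped, as rhTM 3 lay above saline 3. The difference was -0.51 ± 0.25 (95% interval -1.11 to 0.08, limma adjusted p = 0.207), or -0.29 ± 0.30 within slide 2. A second probe of H2-K1 differed by -0.92, and by -0.41 against saline 3. H2-D1 lay at 5.82, 5.58 and 4.83 in saline 1, 2 and 3 and at 4.18, 4.22 and 4.76 in rhTM 1, 2 and 3. Here the groups did not overlap, but rhTM 3 and saline 3 were 0.07 apart. The difference was -1.02 ± 0.32 (-1.78 to -0.26, limma adjusted p = 0.0994), and -0.44 ± 0.29 when blocked by slide (adjusted p = 0.342).

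B2m encodes beta-2 microglobulin, the invariant light chain without which the heavy chain does not reach the surface. It lay at 6.39, 5.84 and 6.45 in saline 1, 2 and 3 and at 6.05, 6.11 and 6.69 in rhTM 1, 2 and 3. The groups overlapped, with rhTM 3 above every saline array and saline 2 below every rhTM array, and with a difference of 0.05 ± 0.27 (-0.59 to 0.70, limma adjusted p = 0.909). Its sign turned with the slide as a block (-0.17 ± 0.35) and under quantile normalization (-0.11). Of the 8 promoter windows searched, that of B2m alone matched the interferon-stimulated element as written above. The shorter site of interferon regulatory factors was present in H2-K1 and H2-D1 as well.

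**Figure D2:**
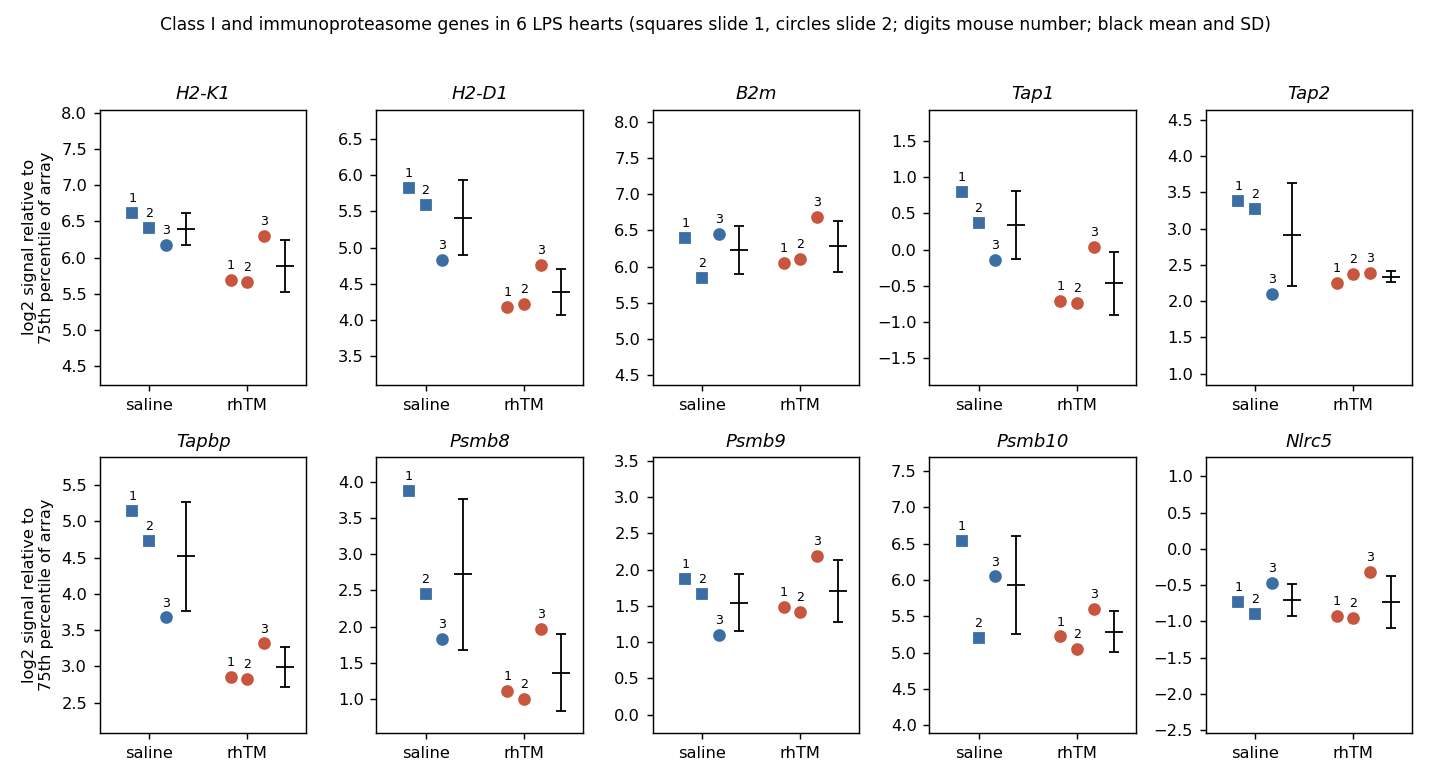
Log2 signal of each of the 10 genes relative to the 75th percentile of its array, in 3 saline and 3 rhTM hearts after LPS, each panel spanning the same number of log2 units. Squares are slide 1 and circles slide 2, digits are mouse numbers, and the black bar is the group mean with SD. Saline 3 sits below saline 1 and 2 in 7 panels, and rhTM 3 above rhTM 1 and 2 in all 10.

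The peptide-loading complex feeds the heavy chain. Tapasin, encoded by Tapbp, bridges the transporter and the heavy chain, and its gene had the largest difference among the members. Tapbp lay at 5.14, 4.73 and 3.68 in saline 1, 2 and 3 and at 2.85, 2.83 and 3.32 in rhTM 1, 2 and 3. All rhTM values were below all saline values, with saline 3 closer to rhTM 3 than to saline 2. The difference was -1.52 ± 0.40 (-2.47 to -0.57), or 2.87-fold lower, with a limma adjusted p of 0.0731. Within slide 2 it was -0.68 ± 0.29 (-1.40 to 0.05, limma adjusted p = 0.181). The other Tapbp probe differed by -0.86, and by -0.33 against saline 3.

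Tap1 and Tap2 encode the paired chains of the transporter that brings peptides into the endoplasmic reticulum. Tap1 lay at 0.80, 0.37 and -0.14 in saline 1, 2 and 3 and at -0.70, -0.73 and 0.04 in rhTM 1, 2 and 3. The overlap came from rhTM 3, which lay above saline 3. The difference was -0.80 ± 0.33 (-1.59 to -0.02, limma adjusted p = 0.157), or -0.32 ± 0.38 within slide 2. The other Tap1 probe differed by -1.33, but by -0.17 against saline 3. Tap2 lay at 3.38, 3.27 and 2.10 in saline 1, 2 and 3 and at 2.25, 2.38 and 2.38 in rhTM 1, 2 and 3. The rhTM arrays were tightly grouped above saline 3 and below saline 1 and 2. Its difference was -0.58 ± 0.36 (-1.44 to 0.28, limma adjusted p = 0.300), and the sign turned to 0.24 ± 0.17 with the slide as a block. The other Tap2 probe read well above background on none of the 6 arrays.

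The immunoproteasome subunits replace constitutive ones in the catalytic core, Psmb8 for Psmb5, Psmb9 for Psmb6 and Psmb10 for Psmb7. Psmb8 lay at 3.87, 2.45 and 1.84 in saline 1, 2 and 3 and at 1.12, 1.00 and 1.97 in rhTM 1, 2 and 3. The saline SD was 1.04, the widest of the 10 genes, and rhTM 3 lay above saline 3. The difference was -1.36 ± 0.55 (-2.67 to -0.04, limma adjusted p = 0.154), or -0.47 ± 0.64 within slide 2.

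Psmb9 lay at 1.87, 1.66 and 1.10 in saline 1, 2 and 3 and at 1.49, 1.42 and 2.19 in rhTM 1, 2 and 3. Its highest and its lowest value were both on slide 2. The difference was 0.16 ± 0.31 (-0.58 to 0.89, limma adjusted p = 0.752), or 0.60 ± 0.35 within slide 2. Tap1, which faces it across the shared promoter, differed by -0.80. Psmb10 lay at 6.54, 5.20 and 6.05 in saline 1, 2 and 3 and at 5.22, 5.04 and 5.60 in rhTM 1, 2 and 3. Saline 2 lay among the rhTM values, while saline 3 lay above all of them. The difference was -0.64 ± 0.37 (-1.52 to 0.24, limma adjusted p = 0.270) and -0.76 ± 0.53 with the slide as a block, the lowest such value of the 10 genes.

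The constitutive partners were not called. Psmb5 differed by -0.43 ± 0.23, Psmb7 by -0.13 ± 0.19 and Psmb6 by 0.08 ± 0.19, with limma adjusted p of 0.249, 0.657 and 0.797. Against saline 3 they differed by -0.05, 0.07 and -0.05. The ratio of an inducible to its constitutive subunit within an array does not depend on the scaling between arrays. For Psmb8 against Psmb5 the log2 ratio, set to a saline mean of 0, read 0.89, -0.38 and -0.50 in saline mice 1 to 3, then -1.06, -1.22 and -0.50 in rhTM mice 1 to 3. The groups met at saline 3 and rhTM 3, and the difference was -0.93 (exact two-sided permutation test, p = 0.2). Psmb10 against Psmb7 differed by -0.51 (exact permutation p = 0.4) and Psmb9 against Psmb6 by 0.07 (exact permutation p = 0.9). With 3 arrays against 3 this test cannot give a p below 0.1, and adjusted over the 3 ratios the exact p-values were 0.6, 0.6 and 0.9. Against saline 3 alone the order of the ratios differed: -0.42 for Psmb8 against Psmb5, -0.83 for Psmb10 against Psmb7 and 0.65 for Psmb9 against Psmb6.

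**Figure D3:**
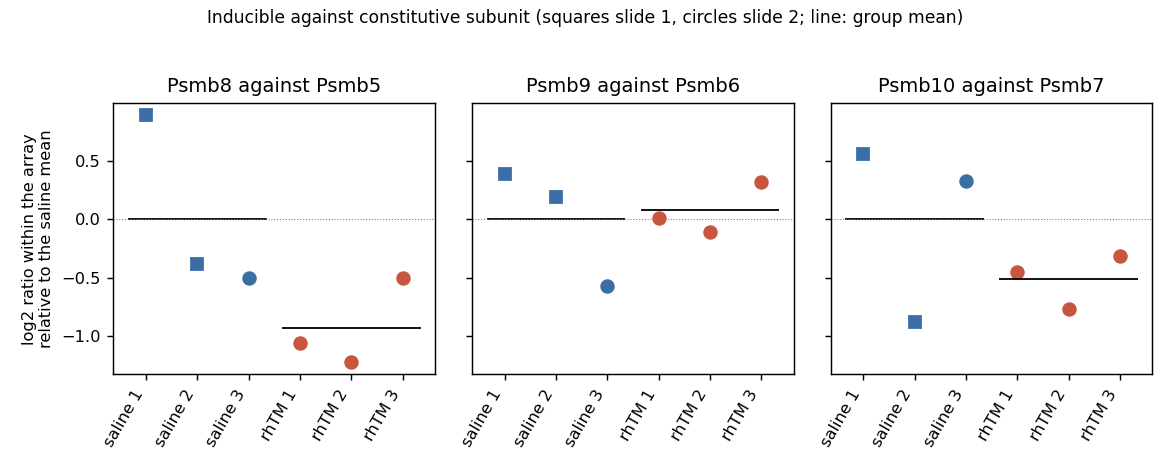
Log2 ratio of each inducible proteasome subunit to the constitutive subunit it replaces, within each array and relative to the saline mean, by array (squares slide 1, circles slide 2; lines are group means). The rhTM mean lies 0.93 below the saline mean for Psmb8 against Psmb5, with saline 1 far above the other saline arrays, and 0.07 above it for Psmb9 against Psmb6; against saline 3 alone these differences are -0.42 and 0.65.

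Nlrc5, the transactivator of class I genes, lay at -0.74, -0.90 and -0.47 in saline 1, 2 and 3 and at -0.93, -0.96 and -0.32 in rhTM 1, 2 and 3. Its lowest and highest values were both in the rhTM group. The difference was -0.03 ± 0.25 (-0.63 to 0.56, limma adjusted p = 0.938), and its sign turned when arrays were centred on the median of the genes tested (0.05). With the slide as a block it was -0.27 ± 0.30. A second Nlrc5 probe was well above background on 1 rhTM array and on no saline array.

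**Figure D4:**
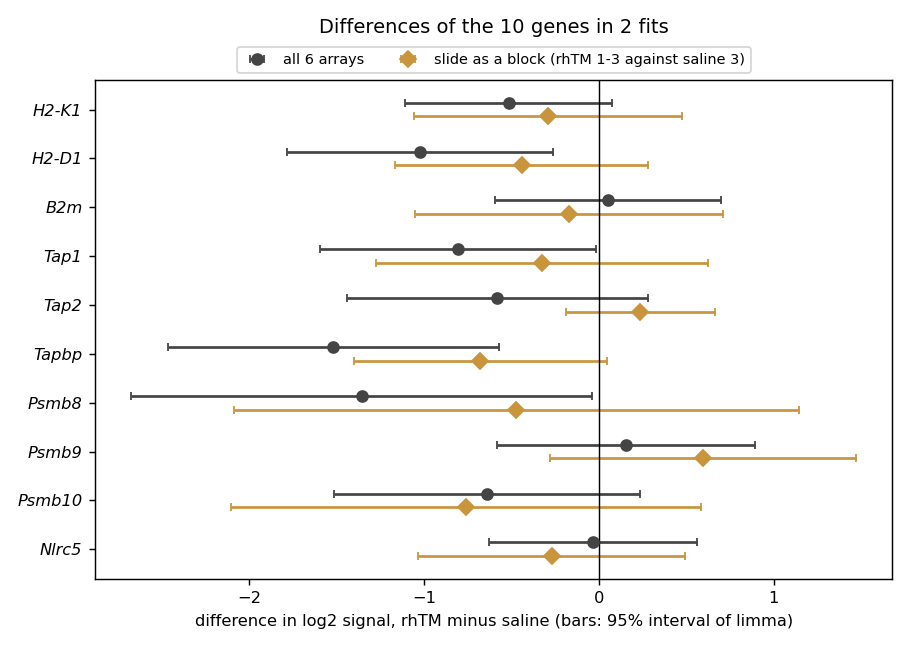
Difference in log2 signal, rhTM minus saline, with the 95% interval of limma for each of the 10 genes, over all 6 arrays (circles) and with the slide as a block (diamonds). With the slide as a block every interval includes 0. The differences of H2-K1, H2-D1, Tap1, Tapbp and Psmb8 then lie closer to 0, and those of Tap2 and B2m lie across it. Those of Psmb9, Psmb10 and Nlrc5 lie further from 0.

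The members did not vary as 1 unit across the hearts. Over the 6 arrays the correlation between pairs of members ran from -0.30 (Tap2 and B2m) to 0.99 (Tapbp and H2-D1), with a median of 0.49 over 45 pairs. H2-K1, H2-D1, Tap1, Tap2, Tapbp and Psmb8 were high in saline 1 and 2, whereas B2m and Nlrc5 (r = 0.90) were highest in rhTM 3 and next highest in saline 3. These correlations describe 6 arrays that share 2 slides and 2 treatments.

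The third array of each group set much of the spread in many members. Saline 3 was also the only saline array on slide 2, so mouse and slide cannot be told apart there. In Psmb8 the saline array furthest from the others was saline 1, and in Psmb10 and B2m it was saline 2. Saline 3 lay below both other saline arrays in 7 members (70%), against 45% of all genes tested, by a median of -0.69 over the 10 members and -0.01 over all genes. In rhTM 3, all 10 members lay above both other rhTM arrays, against 40.5% of all genes, with a median gap of 0.61, against -0.03 for all genes. In rhTM 1 and 2 the members differed from each other by at most 0.18. For 6 members, H2-K1, H2-D1, Tap1, Tapbp, Psmb8 and Nlrc5, both of these arrays lay below every saline array, against 26.2% of all genes. In 7 members rhTM 3 lay above saline 3, against 49.7% of all genes. These comparisons were chosen after the values were seen.

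Markers of other cells also differed between these arrays. Summed levels below are multiples of the array's 75th percentile. Neutrophil markers (7 of 8 tested, among them S100a8 and Mmp8) summed to 135, 216 and 1034 in saline 1, 2 and 3 and to 104, 85.0 and 486 in rhTM 1, 2 and 3, highest in the third mouse of each group. Csf3r, at a log2 level of 6.19 to 6.60 on all arrays, made up most of the sums of rhTM 1 and 2. The other 6 neutrophil markers lay lower with rhTM, and the median difference of the 7 was -3.40, or -5.30 against saline 3. None of the 7 was called, but Retnlg was called lower when blocked by mouse number (-4.66, limma adjusted p 0.160 unblocked and 0.0466 blocked). T and NK cell markers (9 of 13 tested) read 3.87, 4.79 and 10.4 in the saline hearts, then 6.92, 9.78 and 16.7 in the rhTM hearts. These sums were again highest in the third mouse of each group. Taken singly, 1 of the 9 lay lower (Gzmb, -0.88) and 8 higher, up to 1.26 (Cd4). Against saline 3, 4 lay lower, and the median was 0.06. Of the 13 listed, Cd8a, Cd3g, Ncr1 and Klrb1c were not well above background on all arrays of either group. Macrophage markers (10 of 10 tested) ranged from 28.9 to 49.4 in saline and from 33.9 to 49.5 in rhTM hearts. B cell markers (3 of 5 tested, without Cd79a and Ms4a1) ranged from 0.61 to 0.90 in saline and from 1.26 to 1.44 in rhTM hearts. Dendritic cell markers (3 of 6 tested) ranged from 0.14 to 0.23 and from 0.23 to 0.40. Of these, Itgax and Flt3 were well above background on 1 and 0 saline arrays and passed the filter only through the rhTM group, where they are higher, while Zbtb46 differed by -0.96. Summed fibroblast markers (6 of 6) ran from 192 to 211 and from 193 to 272. Singly they differed by -1.10 to 1.22, with 4 lower and 2 higher. Endothelial markers (7 of 7) ranged from 23.4 to 31.4 in saline and from 23.1 to 30.9 in rhTM hearts. These sums hide opposed differences of -1.17 to 0.57, with 5 lower and 2 higher. For 2 of the 7 the rhTM arrays lay wholly below the saline arrays, against 18.7% of all genes. Cardiomyocyte markers (8 of 8 tested), the defining genes of the labelled tissue, ranged from 1880 to 2608 in saline and from 2660 to 3710 in rhTM hearts. Pln, a calcium pump regulator, was the single marker called in the unblocked fit (higher by 1.35 ± 0.28, limma adjusted p = 0.0478). When blocked by mouse number, Itgax (2.48) and the fibroblast gene Lum (1.22) were called higher too (limma adjusted p 0.0462 and 0.0431, unblocked 0.0863 and 0.0543). The part of any of these cell types in the members' values was not tested.

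Other class I heavy chains followed H2-D1 in part. Of 24 listed genes 16 were tested, 0 were called in either direction, and 8 lay lower and 8 higher, with a median of -0.18. The 7 genes H2-D1, H2-K2, H2-Q2, H2-Q7, H2-Q8, H2-Q10 and H2-T23 differed by -1.32 to -0.98, and by -0.44 to -0.37 against saline 3. With H2-K1 added, the 28 pairs among them correlated at 0.89 to 0.999 over the 6 arrays. These 8 genes were picked after the values were seen, so their likeness is no independent result. These genes are close paralogs, so that a probe may read more than 1 of them and the values of each are uncertain. Of the other listed genes that lay lower, H2-T22 differed by -0.64 and H2-T10 by -0.53. In the other direction, the heavy chain gene H2-Q4 differed by 0.48. H2-T3 differed by 0.93 ± 0.26 and Mr1, which presents vitamin metabolites to MAIT cells, by 0.89 ± 0.25 (limma adjusted p 0.0819 and 0.0836). Against saline 3, H2-T3 and Mr1 differed by 0.41 and 0.52. The third lowest p in the list was that of H2-Q8, at -1.02 ± 0.32 (limma adjusted p = 0.104), or -0.41 against saline 3. On blocking by slide, 1 of the 16 was called higher, Fcgrt, the neonatal Fc receptor (1.51, limma adjusted p = 0.0471; unblocked 0.56, adjusted p = 0.401). That call rests on saline 3, at 0.37 against 1.78 and 1.81 in saline 1 and 2.

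Among these pathway lists, peptide trimming held the single call that passed in the fit of all arrays and in both blocked fits. Tpp2, which encodes a large cytosolic peptidase that shortens proteasome products, lay at 2.36, 2.39 and 2.41 in saline 1, 2 and 3 and at 1.17, 1.25 and 1.49 in rhTM 1, 2 and 3. The groups were well apart, and saline 3 lay with the other saline arrays. Tpp2 fell by 1.08 ± 0.18 on the log2 scale (limma adjusted p = 0.0342), and by 1.11 when blocked by slide (adjusted p = 0.0425). Its call was lost when saline 1, saline 2, rhTM 1 or rhTM 2 was left out (adjusted p 0.138, 0.0959, 0.178 and 0.201) and with no filter on dim probes (0.0822), and its other probe differed by -0.51. Of the 14 listed genes of loading, folding and trimming 13 were tested, 1 was called lower and 0 higher, with a median of -0.26. The shares over all genes tested were 2.41% lower and 2.75% higher. Uggt1, which checks glycoprotein folding, differed by -0.89 ± 0.20 (limma adjusted p = 0.0547) and the peptidase gene Thop1 by -1.02 ± 0.31 (0.0983), or by -0.77 and -0.34 against saline 3. The tapasin-related gene Tapbpl differed by -0.97, but by -0.07 against saline 3.

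The rest of the proteasome was not called. The 11 other subunits of the core particle differed by -0.45 to 0.27, with 9 lower, 2 higher and a median of -0.27. Against saline 3 all 11 lay lower, beside 7374 of the 14701 genes tested, with a median of -0.37. The 3 lowest p-values were those of Psmb4, Psmb3 and Psma4 (-0.45, -0.41 and -0.33, limma adjusted p 0.184 to 0.256). Of 9 activators and assembly factors 8 were tested, 0 were called, and the median was 0.08. Psmg1, an assembly chaperone, differed by 0.46, the activator gene Psme4 by -0.88 and Psme1, a subunit of the interferon-inducible activator, by -0.76 (limma adjusted p 0.137, 0.140 and 0.236). Against saline 3 the last 2 differed by -0.15 and 0.00.

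Among transcription factors of class I and class II promoters, 15 of 16 were tested, 1 was called lower and 1 higher, with a median of -0.37. Of all genes tested, 2.41% were called lower and 2.75% higher. Relb, an NF-kB subunit, fell by 1.62 ± 0.33 on the log2 scale (limma adjusted p = 0.0457), its other probe differed by -2.28, and against saline 3 it differed by -1.56. Rela, another NF-kB subunit, differed by -0.58 ± 0.17 (limma adjusted p = 0.0837). The higher call was Ciita, the class II counterpart of Nlrc5 (2.64 ± 0.46, limma adjusted p = 0.0379). Its probe was well above background on 1 of 3 saline arrays and it passed the filter only through the rhTM group, where it is higher. With normexp it differed by 0.82 (limma adjusted p = 0.170), and its other probe, above background nowhere, by 0.47. Irf1, an interferon-induced activator of class I genes, differed by -0.28 ± 0.26, and by 0.14 against saline 3. The interferon gene Ifng was not well above background on all arrays of either group, and nor was Ifnb1.

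Of the 10 interferon ligands, receptors and kinases listed, 8 were tested, 1 was called lower and 0 higher, with a median of -0.36. Over all genes tested, 2.41% were called lower and 2.75% higher. Jak2, a kinase of the interferon gamma receptor, fell by 1.01 ± 0.19 on the log2 scale (limma adjusted p = 0.0430), but its other probe, well above background on all arrays, differed by 0.53. Tyk2 differed by -1.03 ± 0.30 and Jak1 by -0.55 ± 0.19 (limma adjusted p 0.0857 and 0.117), or by -0.41 and -0.71 against saline 3. The calls of Relb, Ciita and Jak2 were lost on blocking by slide (adjusted p 0.102, 0.0764 and 0.0708), on blocking by mouse number (0.0577, 0.0557 and 0.0612), and when saline 1, saline 2, rhTM 1 or rhTM 2 was left out (adjusted p 0.0980 to 0.216 over the 3 genes). On blocking by slide, Rfxank, a subunit of the factor that binds the X box, was called higher (1.58, limma adjusted p = 0.0271), at -0.37 in saline 3 against 1.10 and 1.37 in saline 1 and 2.

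**Figure D5:**
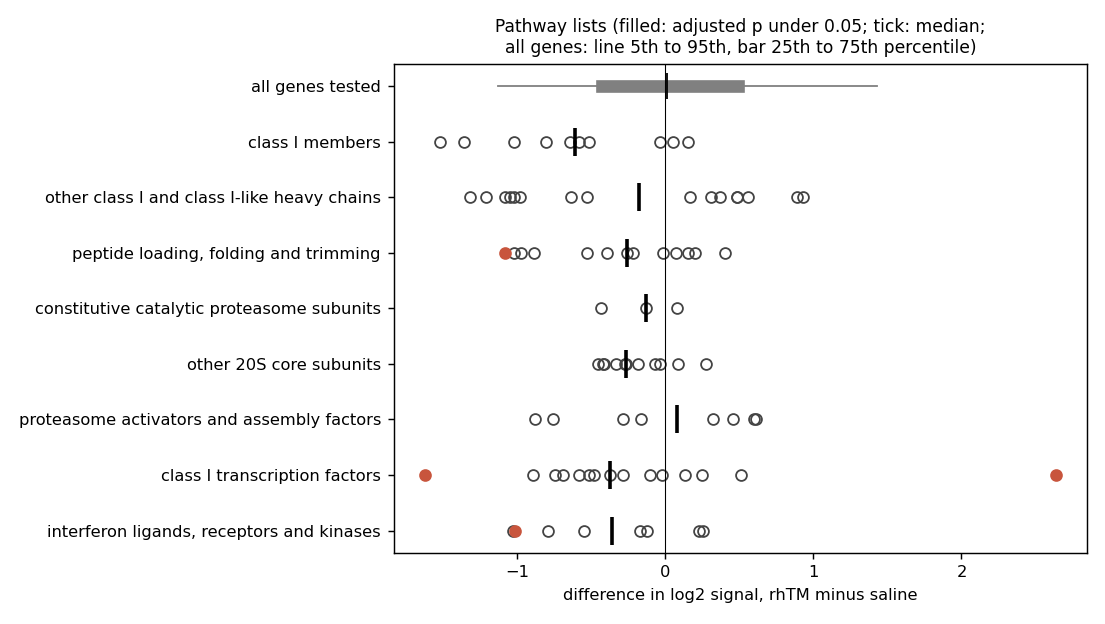
Difference in log2 signal, rhTM minus saline, for the tested genes of the member list and 7 related lists (filled points, adjusted p under 0.05; thick ticks, medians), beside the spread of all 14701 genes tested (line, 5th to 95th percentile; bar, the middle quartiles). The members' median of -0.61 lies below the medians of the 7 other lists, which run from -0.37 to 0.08; with the slide as a block it is -0.31, above the -0.37 of the other core subunits.

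By profile over the 6 arrays, the genes outside the lists whose levels were most like the members' mean were Fut11, Ramp2, Commd5, Ilvbl, LOC547349, Cyp2j6, Cyp2j8, Mocs3, Rfc2 and 9130023H24Rik (r = 0.983 to 0.997). None was called, and their differences ran from -0.97 (LOC547349) to -0.30 (Ilvbl). With 6 arrays and 14701 genes, correlations of this size are a description only. The saline hearts had a mean log2 level over the members of 3.97, 3.46 and 3.16 (mice 1 to 3), the rhTM hearts one of 2.72, 2.70 and 3.29.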

How the data were processed

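The 6 deposited scanner files give, for every spot, a background-corrected intensity (the processed signal) and quality flags. Agilent Feature Extraction 10.7.3.1 made them, per the file headers, whose probe annotation is on mm9; version 9.1 stands in the submitters' processing notes. Its 75th percentile ran from 394 to 732 over the arrays, so it was not on a common scale. A value table of the authors is on a log2 scale. Set against the scanner values its direction is the same, and each column is centred on a baseline per probe that differs between slides and is not stated; the medians were -0.02, -0.16 and 0.10 (saline 1 to 3) and -0.08, 0.03 and 0.09 (rhTM 1 to 3). It served only as an alternative.

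Log2 processed signals minus each array's 75th percentile were used. Spots with outlier flags were left out (368 of 56605 probes), spots of 1 probe were averaged, and 32789 of 56237 kept probes were named through their accession in a RefSeq table (GRCm38.p6), from which no gene coordinates are given. Each gene was represented by its brightest probe over all arrays and tested if at least 1 group had it well above background on each of its 3 arrays. Groups, from the sample titles, were compared with limma (version 3.58.1, R 4.3.3), a fit also tested on simulated data. The number of arrays limits the precision. Since the labels name separate mice, the spread is that between mice, but among the saline arrays it also holds any difference between slide 1 and slide 2. The named genes are all members, the called genes and the 3 lowest p-values of each related list, and a few genes singled out after their values were seen; 1 listed gene is not reported here. The members and lists were chosen with earlier results of these data known. Alternatives covered background correction, scaling, filters, probe choice, blocks, the deposited table and each array left out.

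Both groups carry the mouse numbers 1 to 3. Across genes, arrays of the same number deviated from the group means together (r = 0.32, 0.23 and 0.37), but rhTM 2 correlated more with saline 1 (0.31) than with saline 2, and the labels state no shared litter or day. The pairing thus comes from the numbers and these correlations alone. The fit with that replicate number as a block is given beside a result where it changes a call.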

Additional observations from a re-analysis of the deposited data

How the results depend on the processing

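Over 16 alternatives, H2-K1, H2-D1, Tap1, Tapbp, Psmb8 and Psmb10 kept a negative difference in each, and no member was called higher in any. The members' median ran from -0.81 to -0.31. In the deposited value table the baseline per probe differed between slides (SD 0.824 over probes). Its differences and its calls, for members and for all genes, therefore also hold that offset. The count of members called lower was 0 in the main result, 1 with the deposited value table (Tapbp, -1.06), where 15.7% of all genes were called lower, and 0 to 5 with single arrays left out, the 5 without saline 3, where 19.1% were. Signs turned for B2m with quantile normalization (-0.11), the slide as a block (-0.17) and the deposited table (-0.45), for Tap2 with the slide as a block (0.24) and for Nlrc5 with median centring (0.047). With arrays left out in turn, B2m ran from -0.15 to 0.17, Psmb9 from -0.091 to 0.32 and Nlrc5 from -0.24 to 0.084.

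Over all genes, 405 were called higher and 355 lower. The counts were 204 and 215 with normexp on the median signal, 132 and 19 with no filter on dim probes, 2205 and 2314 with the deposited table, 0 to 3007 and 0 to 2808 with single arrays left out, and 357 and 242 under the replicate block, which changed no member's call. Leaving out rhTM 1 gave 0 calls (limma, 1271 higher and 1314 lower at an unadjusted p under 0.05), and 0 were called lower without saline 1 (1452) or rhTM 2 (1261). Higher calls made up 53.3% of all, 64.3% with median centring, 43.0% with quantile normalization. The files hold no mean signal, so normexp used the median signal. The cause of these shifts was not tested.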
